A study of Mus musculus with 574 samples.

Results

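Cadherin, protocadherin and Celsr genes were followed through the developing mouse ventral midbrain. They were chosen by symbol (Cdh or Celsr followed by digits, or Pcdh followed by digits or letters) and by a level of at least 1 RPKM (a read density scaled to exon length and to the library's mapped reads) in at least 6 of 24 pools of cells. Of 60 rows that matched by symbol among the 23706 genes of the pool table, 46 reached that level and are called members here. All 46 were also present in the table of single cells. Because the level in the pools chose them, 11 members that reached 1 RPKM in E13.5 pools only had to be higher there: 9 beta cluster protocadherins, Cdh23 and Pcdh15. Just inside the limit, at 6 pools, were Cdh5, Pcdhb5 and Pcdhb21, and just outside it, at 4 pools, were Cdh9, Pcdhb2, Pcdhb11 and Pcdhb12.

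All embryos were of the C57BL/6 strain and heterozygous for Lmx1a-EGFP, a green reporter of the floor plate gene Lmx1a, so that GFP- pools carry the reporter allele too. The 4 groups of 6 pools, each pool of 100 sorted cells, were E13.5 GFP+, E13.5 GFP-, E10.5 GFP+ and E10.5 GFP-. A further 550 libraries were single cells, of which 24.9% came from E10.5, 16.4% (90 cells) from E11.5, 32.4% from E12.5 and 26.4% from E13.5. All libraries were made by Smart-seq2, a full-length cDNA method without molecular identifiers. The labels name no embryo or litter, so p-values measure only the spread between pools, which may be technical, and they do not say which single cells were sorted for GFP.

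Cadherins are calcium-dependent adhesion molecules whose outer repeats bind mostly to the same cadherin on a neighbouring cell and whose tails, in the classical kinds, hold the actin skeleton through catenins. In the developing brain the classical type I member Cdh2 (N-cadherin) holds the apical junctions of progenitors, and type II members differ between nuclei and axon tracts. The clustered protocadherins are chosen cell by cell from arrays of alternative promoters, with the factors Ctcf and cohesin, and give single neurons an identity used in self-avoidance. Celsr proteins are large seven-pass cadherins of planar cell polarity, which orients tissue and guides axons.

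Pools had a median depth of 2.82 M reads, between 1.33 and 3.76 M, and single cells one of 1.33 M, between 0.376 and 7.5 M, as far as the smallest values of each library allow a rough estimate. Within a group, pools correlated at 0.934 to 0.960. Summed over 6 dopamine neuron markers, E13.5 GFP+ pools held 702 to 1201 RPKM and E13.5 GFP- pools 56.1 to 127.5. At that stage the reporter and the markers thus went together. At E10.5 the sums overlapped, with 39.9 to 98.8 RPKM in GFP+ and 32.3 to 83.2 in GFP- pools. Summed over 6 neuron markers (Tubb3, Stmn2, Dcx, Elavl4, Snap25 and Nefl), the pools held 3067 to 3356 RPKM in E13.5 GFP+, 3419 to 4017 in E13.5 GFP-, 270 to 445 in E10.5 GFP+ and 1209 to 2229 in E10.5 GFP-. Progenitor markers (6 genes, Sox2 and Nes among them) summed to 1275 to 1933, 529 to 1434, 2285 to 2728 and 2455 to 3208 RPKM in the same order of groups. E10.5 GFP- pools stood apart by mesenchyme markers (113.5 to 287 RPKM summed, against 28.8 or less in any pool of another group) and some of them had high red blood cell genes (34.1 to 70427 RPKM summed, against 1.1 to 22.7 in E13.5 GFP+, 18.3 to 7384 in E13.5 GFP- and 26.9 to 81.6 in E10.5 GFP+ pools) and microglia genes (0 to 296 RPKM, against 0 to 0.536, 0 to 249 and 0 to 0.193). In pools, fewer cells of a type and less RNA per cell cannot be told apart.

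Between stages the adhesion genes shifted strongly, with most members higher and a small set lower at the later stage. Among GFP+ pools 30 of 46 members rose at E13.5 and 4 fell, where 22.1% of the 15871 genes tested rose and 29.6% fell. Among GFP- pools 34 members rose and 6 fell, against 19.7% and 26.9% of all genes. The test was limma's moderated test on log2(RPKM + 1) over all 24 pools, with Benjamini-Hochberg adjustment over all genes and a call at an adjusted p under 0.05; the added 1 understates changes of low genes. The median log2 difference of the members was 1.23 in GFP+ pools and 1.41 in GFP- pools, and that of all genes -0.14 and -0.11. These counts include the 11 members that could not but be higher at E13.5. The remaining beta cluster genes and Cdh18, among others, also passed the limit mainly through E13.5 pools. Cdh5, which fell in GFP- pools, passed it mainly through E10.5 GFP- pools. Of the 19 members at 1 RPKM or more in at least 6 of the 12 pools of each stage, 10 rose and 4 fell in GFP+ pools, and 13 rose and 4 fell in GFP- pools, with medians of 0.67 in GFP+ and 1.30 in GFP- pools. Calls ran the same way in both classes for 31 members: 28 rose in both and 3, namely Celsr1, Pcdh8 and Pcdh18, fell in both. Cdh11 alone was called in opposite directions. Of the neuron markers, 6 of 6 rose in GFP+ pools and 5 in GFP- pools, and of the progenitor markers 5 and 6 fell; their part in these counts was not tested.

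**Figure D1:**
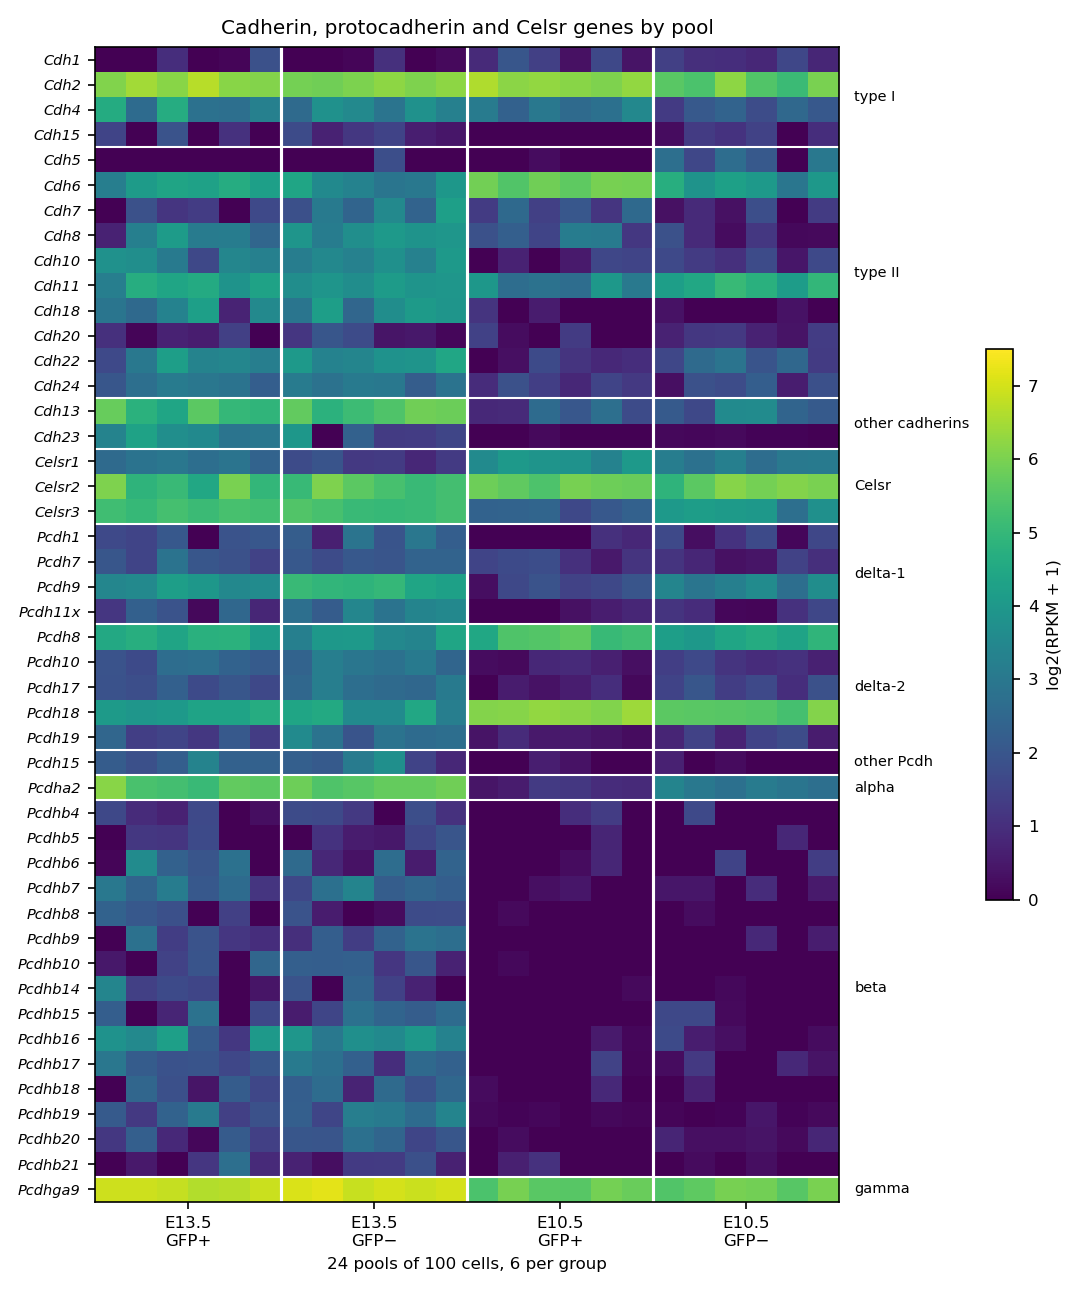
Heat map of log2(RPKM + 1) of the 46 members (rows, by family) in the 24 pools (columns, E13.5 GFP+, E13.5 GFP-, E10.5 GFP+ and E10.5 GFP-, 6 pools each); brighter is higher. Pcdhga9 and Cdh2 are bright in every pool, the beta cluster and Pcdha2 are brighter in the E13.5 than in the E10.5 columns, and Pcdh18 and Cdh6 are brightest in E10.5 GFP+ columns.

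The members that fell in GFP+ pools were Pcdh18, Cdh6, Celsr1 and Pcdh8. Pcdh18, a delta-2 protocadherin, had 14.4 to 24.2 RPKM (median 17.6) in E13.5 GFP+ pools and 8.29 to 22.6 (median 15.6) in E13.5 GFP- pools, against 66.9 to 84 (median 71.2) in E10.5 GFP+ pools and 38 to 68.1 (median 46.5) in E10.5 GFP- pools. The stages did not overlap in either class. On the log2 scale it fell by 1.98 ± 0.20 in GFP+ pools (SE, 6 pools a group, adjusted p = 5.69e-09) and by 1.63 ± 0.20 in GFP- pools (adjusted p = 2.22e-07). Cdh6 (K-cadherin), a type II cadherin of neural boundaries and kidney, had 8.21 to 23.83 RPKM (median 18.11) in E13.5 GFP+ pools and 6.55 to 20.4 (median 9.89) in E13.5 GFP- pools, against 42.8 to 61.5 (median 57.9) in E10.5 GFP+ pools and 6.73 to 25.1 (median 15.3) in E10.5 GFP- pools. The E10.5 GFP+ pools thus lay above every other pool of the series for this gene. Cdh6 fell by 1.65 ± 0.27 in GFP+ pools (adjusted p = 1.05e-05), while its difference of -0.44 in GFP- pools was not called (adjusted p = 0.187). Pcdh8, a delta-2 protocadherin also called arcadlin, averaged 22.7 ± 3.85 RPKM in E13.5 GFP+, 13.2 ± 4.59 in E13.5 GFP-, 37.3 ± 9.89 in E10.5 GFP+ and 20.7 ± 4.80 in E10.5 GFP- pools (SD, n = 6 each). Its log2 level fell by 0.66 ± 0.21 in GFP+ pools (adjusted p = 0.0111) and by 0.65 ± 0.21 in GFP- pools (adjusted p = 0.0143), with overlapping pools in both; without the 2 E10.5 GFP- pools richest in endothelial and mesenchymal markers, the call in GFP- pools was lost (adjusted p = 0.0792).

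Promoter sequence is shown for the fallers Cdh6, Pcdh18 and Pcdh8, and for Celsr3 and Cdh23, which rose, so that the windows can be read side by side. Each is the 250 bases before the RefSeq start of the gene on GRCm38.p6, written 5′ to 3′ on the gene's strand: chr15:13173676-13173925 (minus) for Cdh6, chr3:49757317-49757566 (minus) for Pcdh18, chr14:79771313-79771562 (minus) for Pcdh8, chr9:108825795-108826044 (plus) for Celsr3 and chr10:60696491-60696740 (minus) for Cdh23. Capitals mark the core ACAAAG bound by SOX factors, or CTTTGT where it lies on the other strand.
Cdh6: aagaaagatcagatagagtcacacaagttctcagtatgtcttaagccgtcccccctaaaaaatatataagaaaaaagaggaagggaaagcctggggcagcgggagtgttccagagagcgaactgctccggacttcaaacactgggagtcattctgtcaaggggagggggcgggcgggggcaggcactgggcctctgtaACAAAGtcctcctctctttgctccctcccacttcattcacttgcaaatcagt
Pcdh18: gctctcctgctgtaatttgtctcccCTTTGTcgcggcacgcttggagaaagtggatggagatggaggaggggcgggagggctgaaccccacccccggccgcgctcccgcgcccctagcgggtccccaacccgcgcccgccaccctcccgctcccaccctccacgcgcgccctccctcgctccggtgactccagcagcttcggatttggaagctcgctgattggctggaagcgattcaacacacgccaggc
Pcdh8: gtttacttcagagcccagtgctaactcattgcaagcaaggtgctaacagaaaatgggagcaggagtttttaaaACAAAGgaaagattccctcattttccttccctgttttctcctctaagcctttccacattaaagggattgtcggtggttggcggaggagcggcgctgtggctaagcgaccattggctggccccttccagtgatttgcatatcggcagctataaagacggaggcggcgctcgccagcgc
Celsr3: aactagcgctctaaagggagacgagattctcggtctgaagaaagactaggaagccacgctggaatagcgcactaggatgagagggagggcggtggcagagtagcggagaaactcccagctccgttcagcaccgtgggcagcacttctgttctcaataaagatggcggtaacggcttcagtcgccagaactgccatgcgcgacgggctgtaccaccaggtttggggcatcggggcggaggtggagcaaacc
Cdh23: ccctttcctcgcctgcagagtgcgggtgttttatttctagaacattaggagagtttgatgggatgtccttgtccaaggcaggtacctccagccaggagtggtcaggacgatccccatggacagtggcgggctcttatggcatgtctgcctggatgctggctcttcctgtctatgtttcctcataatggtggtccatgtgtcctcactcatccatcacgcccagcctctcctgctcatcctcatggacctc
The core occurred once in each of the first 3 windows and not in those of Celsr3 and Cdh23. For Celsr1, which also fell in GFP+ pools, no window was at hand. Over the 20 members with a window, the core was found in 4, where 18.6% of 27025 genes hold it in such a window. The fourth was Cdh7, which rose in GFP- pools. The bHLH box CAGCTG, searched on both strands, was in none of the 20 and in 14.7% of all genes. These matches describe the letters only.

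Among type I classical cadherins, Cdh2 was among the most abundant members in every group. It had 67 to 103.01 RPKM (median 70.7) in E13.5 GFP+ pools and 57.8 to 74.6 (median 64.8) in E13.5 GFP- pools, against 65.7 to 95.5 (median 74.5) in E10.5 GFP+ pools and 33.9 to 73.6 (median 44.9) in E10.5 GFP- pools. Its log2 difference between stages in GFP+ pools was 0.02 ± 0.15 (adjusted p = 0.933). At E10.5 it was higher in GFP+ than in GFP- pools by 0.63 ± 0.15 (adjusted p = 0.00495), a call lost without the 3 E10.5 GFP+ pools of lowest depth (adjusted p = 0.0583). In GFP- pools it rose with stage by 0.44 ± 0.15 (adjusted p = 0.0219). Cdh4 (R-cadherin), which can also bind Cdh2, rose with stage in GFP- pools by 1.30 ± 0.35 (adjusted p = 0.00297), with 9.40 ± 3.29 RPKM at E13.5 and 3.20 ± 1.22 at E10.5. Cdh1 (E-cadherin, the epithelial member) fell by 0.88 with stage in GFP- pools (adjusted p = 0.0376), with means of 1.36 RPKM or less in every group, and Cdh15 had no call in any contrast. Cdh3 was below the limit.

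The type II cadherins moved apart from one another. Of 10 members, 5 rose and 1 (Cdh6) fell in GFP+ pools, and 6 rose and 2 (Cdh5 and Cdh11) fell in GFP- pools. Cdh18 had a mean of 8.27 RPKM in E13.5 GFP+ and 11.7 in E13.5 GFP- pools, against 0.282 in E10.5 GFP+ and 0.096 in E10.5 GFP- pools, of which 4 in each E10.5 group were at 0. The log2 level of Cdh18 rose by 2.60 ± 0.41 in GFP+ pools (adjusted p = 7.6e-06) and by 3.42 ± 0.41 in GFP- pools (adjusted p = 1.63e-07). Cdh10, Cdh22 and Cdh24 rose in both classes too, by 2.41, 2.32 and 1.36 in GFP+ pools and by 2.20, 1.68 and 1.42 in GFP- pools. Cdh20 had no call in any contrast.

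Cdh8, Cdh7 and Cdh11 behaved differently in the 2 GFP classes. Cdh8 had 0.632 to 16.5 RPKM (median 7.83) in E13.5 GFP+ pools and 7.92 to 15.2 (median 13.7) in E13.5 GFP- pools, against 1.34 to 7.95 (median 3.22) in E10.5 GFP+ pools and 0.122 to 2.60 (median 0.515) in E10.5 GFP- pools. The widest spread was in E13.5 GFP+ pools, which overlapped the E10.5 GFP+ pools. Cdh8 rose by 3.0 ± 0.44 in GFP- pools (adjusted p = 2.82e-06) and the difference of 0.62 in GFP+ pools was not called (adjusted p = 0.245). Cdh7 had 0 to 2.60 RPKM (median 1.37) in E13.5 GFP+ pools and 2.55 to 17.8 (median 5.86) in E13.5 GFP- pools, against 1.22 to 4.94 (median 2.39) in E10.5 GFP+ pools and 0 to 2.51 (median 0.563) in E10.5 GFP- pools. E13.5 GFP- pools were thus the high group for this gene. Cdh7 rose by 2.13 ± 0.42 in GFP- pools (adjusted p = 0.00017), and at E13.5 it was lower in GFP+ than in GFP- pools, at -1.91 ± 0.42 (adjusted p = 0.00432). 

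Cdh11, a type II cadherin known from mesenchyme and from neurons, had 8.22 to 24.5 RPKM (median 19.6) in E13.5 GFP+ pools and 11.7 to 16.3 (median 13.8) in E13.5 GFP- pools, against 5.37 to 15.1 (median 6.63) in E10.5 GFP+ pools and 16.9 to 31.9 (median 23.77) in E10.5 GFP- pools. At E10.5 every GFP+ pool was below every GFP- pool. Cdh11 rose by 0.98 ± 0.26 in GFP+ pools (adjusted p = 0.00293) and fell by 0.74 ± 0.26 in GFP- pools (adjusted p = 0.023). E10.5 GFP- pools were also those with mesenchyme markers, and the fall was lost without the 2 pools richest in endothelial and mesenchymal markers (adjusted p = 0.145); the part of mesenchyme in it was not tested further. Cdh5 (VE-cadherin, of endothelium) was at 0 in all 6 E13.5 GFP+ pools and had 0 to 7.08 RPKM (median 4.36) in E10.5 GFP- pools, where summed endothelial markers reached 105.8 RPKM. It fell by 1.72 ± 0.39 in GFP- pools (adjusted p = 0.000596). Cdh5 reached 1 RPKM in 5 E10.5 GFP- pools, 1 E13.5 GFP- pool and 0 GFP+ pools. It was thus a member mainly through the group where it was high, which favoured this fall. It was at 10 RPKM or more in 0 of 550 single cells.

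Cdh13 and Cdh23 are cadherins of other kinds. Cdh13 (T-cadherin, held by a lipid anchor in place of a tail) was one of the clearest risers. It had 20.3 to 53.5 RPKM (median 30.1) in E13.5 GFP+ pools and 27.2 to 58 (median 46.4) in E13.5 GFP- pools, against 0.81 to 5.73 (median 2.70) in E10.5 GFP+ pools and 2.11 to 11.2 (median 3.85) in E10.5 GFP- pools. The stages did not overlap, and the rise was 3.27 ± 0.36 in GFP+ pools (adjusted p = 2.29e-08) and 2.88 ± 0.36 in GFP- pools (adjusted p = 2.75e-07). Cdh23, known from the tip links of inner ear hair cells, had 6.32 to 19.2 RPKM (median 10.1) in E13.5 GFP+ pools and 0 to 14.7 (median 1.73) in E13.5 GFP- pools. It was near 0 at E10.5, with 0.142 RPKM in the highest GFP+ pool and a mean of 0.0743 in GFP- pools. At E13.5 it was higher in GFP+ than in GFP- pools by 1.72 ± 0.41 (adjusted p = 0.00748), with 1 GFP- pool inside the GFP+ range; in a fit of the E13.5 pools alone the call was lost (adjusted p = 0.074). 

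**Figure D2:**
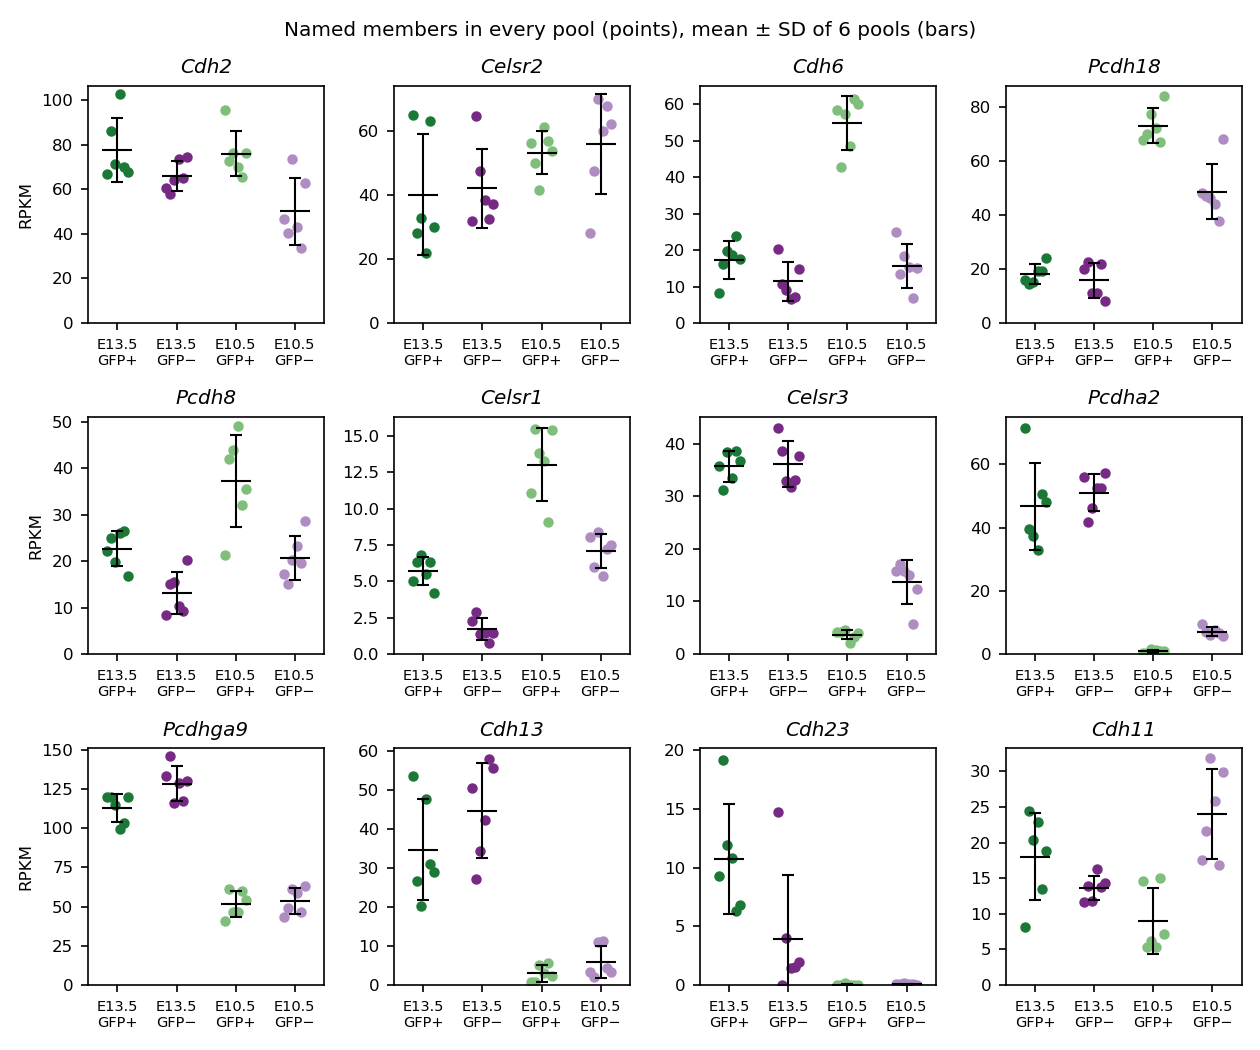
RPKM of 12 members in each pool (points), with the mean and SD of 6 pools a group (E13.5 GFP+, E13.5 GFP-, E10.5 GFP+ and E10.5 GFP- from left to right); each panel has its own axis from 0. Celsr1 and Celsr3 run in opposite directions between stages, Celsr2 overlaps in all 4 groups, and Cdh6 is high in E10.5 GFP+ pools only.

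Of the 3 Celsr genes, 1 fell, 1 rose and 1 was not called with stage. Celsr1, which acts in planar polarity of epithelia and neural progenitors, had 4.19 to 6.82 RPKM (median 5.91) in E13.5 GFP+ pools and 0.77 to 2.86 (median 1.45) in E13.5 GFP- pools, against 9.06 to 15.5 (median 13.6) in E10.5 GFP+ pools and 5.35 to 8.4 (median 7.38) in E10.5 GFP- pools. Celsr3, which is needed for the growth of long axon tracts, had 31.2 to 38.7 RPKM (median 36.3) in E13.5 GFP+ pools and 31.8 to 43.1 (median 35.4) in E13.5 GFP- pools, against 2.09 to 4.49 (median 4.11) in E10.5 GFP+ pools and 5.62 to 17.2 (median 15.5) in E10.5 GFP- pools. For both genes the stages did not overlap in either class. Celsr1 fell by 1.06 ± 0.21 in GFP+ pools (adjusted p = 0.000155) and by 1.62 ± 0.21 in GFP- pools (adjusted p = 6.2e-07). Celsr3 rose by 2.99 ± 0.20 in GFP+ pools (adjusted p = 2.84e-12) and by 1.41 ± 0.20 in GFP- pools (adjusted p = 2.36e-06). Celsr2, which is present in progenitors and neurons, had group means of 40.2 to 56 RPKM and no call in any contrast.

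All 4 delta-1 protocadherins rose with stage in both classes. Pcdh9 had 9.95 to 17.3 RPKM (median 10.9) in E13.5 GFP+ pools and 18.2 to 33 (median 29.1) in E13.5 GFP- pools, against 0.206 to 2.97 (median 2.09) in E10.5 GFP+ pools and 5.55 to 11.8 (median 8.98) in E10.5 GFP- pools. No pair of groups compared overlapped: it was higher at E13.5 in both classes and lower in GFP+ pools at both stages. Pcdh9 rose by 2.23 ± 0.26 in GFP+ pools (adjusted p = 5.31e-08) and by 1.5 ± 0.26 in GFP- pools (adjusted p = 2.9e-05). Pcdh11x, Pcdh7 and Pcdh1 rose by 1.19, 0.67 and 1.22 in GFP+ pools and by 2.18, 1.24 and 1.08 in GFP- pools; in GFP+ pools the call of Pcdh11x was lost without the 3 E10.5 pools of lowest depth (adjusted p = 0.0638). Of the 5 delta-2 protocadherins, Pcdh10, Pcdh17 and Pcdh19 rose in both classes and Pcdh8 and Pcdh18 fell in both. Pcdh19, whose human gene is tied to an epilepsy of girls, had 2.38 ± 1.27 RPKM in E13.5 GFP+ and 6.18 ± 2.69 in E13.5 GFP- pools, against 0.426 in E10.5 GFP+ and 1.32 in E10.5 GFP- pools on average. Pcdh15, a partner of Cdh23 in tip links, rose by 2.21 ± 0.36 in GFP+ pools (adjusted p = 1.11e-05) and by 2.12 in GFP- pools (adjusted p = 2.63e-05), and is one of the members at 1 RPKM in E13.5 pools only.

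**Figure D3:**
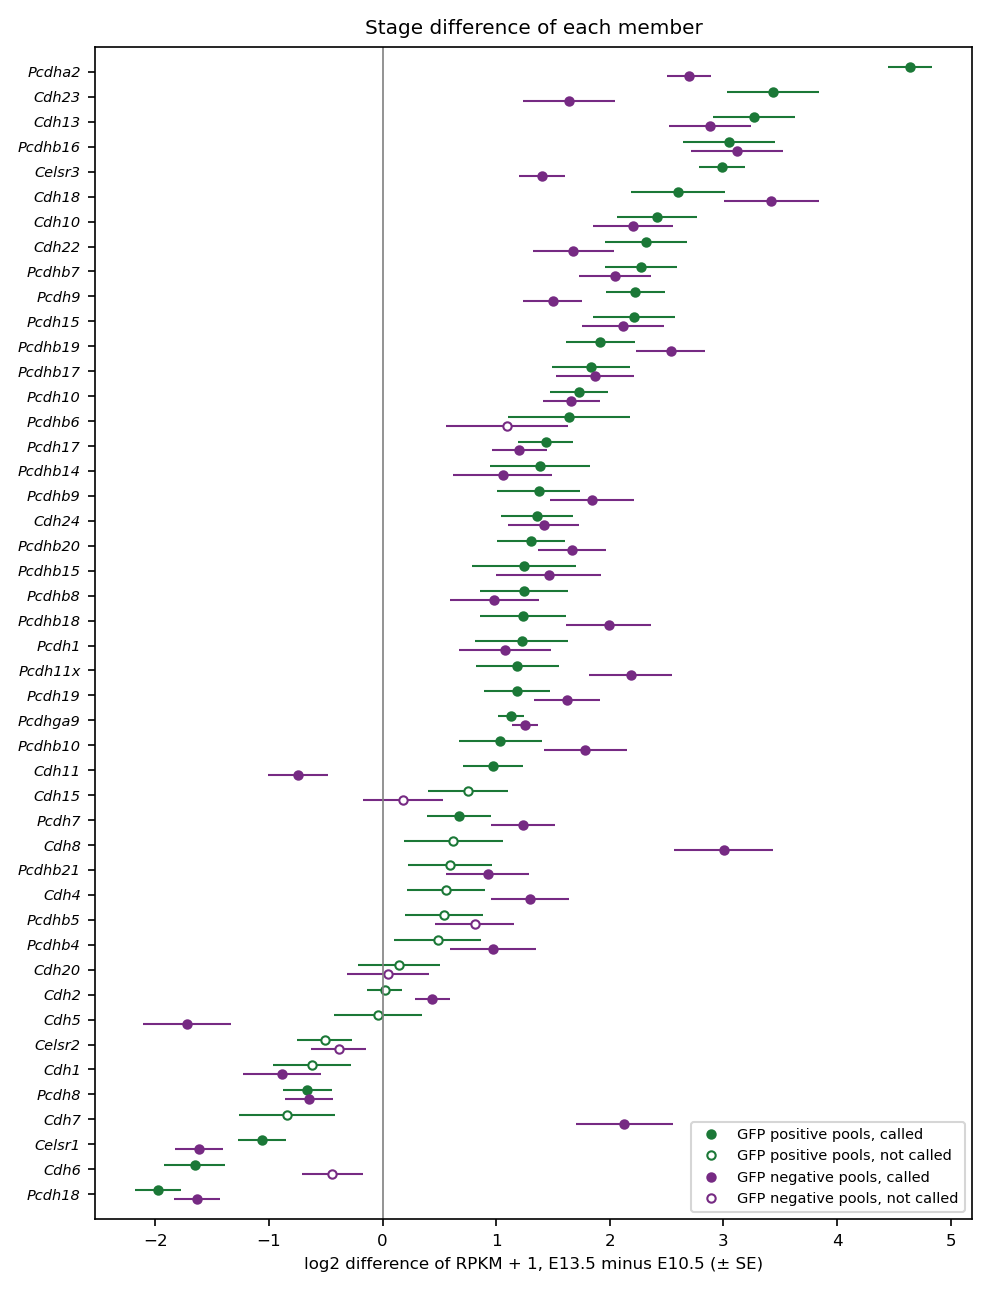
Log2 difference of E13.5 over E10.5 (horizontal axis, with SE) for the 46 members, in GFP+ pools (green) and GFP- pools (purple); filled points passed an adjusted p under 0.05. Pcdha2 has the greatest rise in GFP+ pools at 4.64, Cdh18 the greatest in GFP- pools at 3.42, and Cdh11 lies on opposite sides of 0.

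Of the clustered protocadherins, the beta genes in both classes and the alpha row in GFP+ pools were near 0 at E10.5, the alpha row was low in GFP- pools, and the gamma row was high throughout. The table holds 1 row for the alpha cluster, under the symbol Pcdha2, and 1 for the gamma cluster, under Pcdhga9, where GENCODE annotates 13 alpha and 22 gamma genes. Exons of these rows overlap 12 and 25 other annotated genes, so the rows may hold reads of the whole clusters and the identity within them is uncertain. The alpha row had 32.8 to 71.4 RPKM (median 44) in E13.5 GFP+ pools and 41.9 to 57.3 (median 52.4) in E13.5 GFP- pools, against 0.337 to 1.43 (median 0.897) in E10.5 GFP+ pools and 5.66 to 9.51 (median 6.85) in E10.5 GFP- pools. E10.5 GFP+ pools were below all E10.5 GFP- pools, and both below all E13.5 pools. It rose by 4.64 ± 0.19 in GFP+ pools (adjusted p = 2.86e-16) and by 2.70 ± 0.19 in GFP- pools (adjusted p = 2.61e-11). The gamma row, Pcdhga9, had 99.4 to 120.04 RPKM (median 117.13) in E13.5 GFP+ pools and 115.7 to 145.7 (median 129.08) in E13.5 GFP- pools, against 40.5 to 61.2 (median 50.2) in E10.5 GFP+ pools and 43.3 to 62.9 (median 53.9) in E10.5 GFP- pools. It was the only clustered row above 20 RPKM at E10.5, and it rose by 1.13 ± 0.12 in GFP+ pools (adjusted p = 6.72e-09) and by 1.25 ± 0.12 in GFP- pools (adjusted p = 1.98e-09).

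Beta cluster genes have a single large exon each and are listed one by one. Summed over 21 rows, they gave 48.7 ± 8.92 RPKM in E13.5 GFP+ and 56.2 ± 6.84 in E13.5 GFP- pools, against 2.60 ± 2.16 in E10.5 GFP+ and 4.86 ± 2.41 in E10.5 GFP- pools (SD, n = 6 each). An E13.5 pool held 11 to 14 beta genes at 1 RPKM or more, and an E10.5 pool 0 to 3. Of 15 beta members, 12 rose in GFP+ pools and 13 in GFP- pools, and none was called in the other direction. Of all genes, 22.1% and 19.7% rose. In E13.5 pools only, 9 of the 15 reached 1 RPKM. The others, Pcdhb4, Pcdhb6, Pcdhb15, Pcdhb16, Pcdhb17 and Pcdhb21, reached it in at most 2 of 12 E10.5 pools. All 15 were thus members through E13.5 pools, so the choice of members favoured a rise and the count is no evidence of one. Pcdhb16, the largest riser of the cluster in both classes, had 1.34 to 17.8 RPKM (median 11.8) in E13.5 GFP+ pools and 6.98 to 14.9 (median 11.53) in E13.5 GFP- pools, against means of 0.0899 in E10.5 GFP+ and 0.521 in E10.5 GFP- pools. Its rise was 3.05 ± 0.40 in GFP+ pools (adjusted p = 4.6e-07) and 3.12 ± 0.40 in GFP- pools (adjusted p = 4.52e-07). Pcdhb4, Pcdhb5 and Pcdhb21 were not called in GFP+ pools, nor Pcdhb5 and Pcdhb6 in GFP- pools. At the median depth, 1 RPKM of a beta gene of median length (3718 bases of exon) is about 10 reads, and 3 reads would be 0.286 RPKM, or 0.605 at the lowest depth, so the E10.5 values of single beta genes lie near or under what the depth can show.

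Between GFP classes fewer members differed. At E10.5, 6 members were higher and 7 lower in GFP+ than in GFP- pools, where 4.51% of all genes were higher and 8.64% lower. The 6 were Cdh2, Cdh6, Cdh8, Celsr1, Pcdh8 and Pcdh18, of which Cdh6 had the largest difference, 1.82 ± 0.27 (adjusted p = 2e-05), with no overlap between the classes. Celsr1 was higher by 0.79 ± 0.21 (adjusted p = 0.0121), also with no overlap, and Cdh8 by 1.43 ± 0.44 (adjusted p = 0.0282), a call lost in 5 of 24 fits without 1 pool. The call of Pcdh18 (0.60 ± 0.20, adjusted p = 0.0484) was lost in 16 of these fits. The 7 that were lower were the alpha row Pcdha2 at -2.11 ± 0.19 (adjusted p = 1.07e-08), Cdh5 at -1.98 ± 0.39 (adjusted p = 0.000576), Pcdh9 at -1.78 ± 0.26 (adjusted p = 1.46e-05), Celsr3 at -1.60 ± 0.20 (adjusted p = 1.92e-06), Cdh11 at -1.41 ± 0.26 (adjusted p = 0.000386), Cdh22 at -1.31 ± 0.36 (adjusted p = 0.0137, but 0.0795 without the 3 GFP+ pools of lowest depth) and Pcdh17 at -1.11 ± 0.24 (adjusted p = 0.00179). Cdh5 was a member mainly through E10.5 GFP- pools, so the choice of members favoured its direction here. In the same contrast all 6 neuron markers were lower in GFP+ pools, as were 3 of 4 tested endothelial, 5 of 6 mesenchyme, 6 of 6 microglia and macrophage and 5 of 5 tested red blood cell markers. Tek and Cldn5 were at 0 in every E10.5 GFP+ pool. The part of these cells in the calls was not tested.

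At E13.5, 3 members were higher in GFP+ than in GFP- pools and 5 lower, against 3.42% and 3.74% of all genes. Cdh23 and Celsr1 (1.35 ± 0.21, adjusted p = 0.000104) led the higher ones, followed by Pcdh8 (0.79 ± 0.21, adjusted p = 0.0213), whose call was lost in 5 fits without 1 pool. Lower were Cdh7, Pcdh11x at -1.53 ± 0.37 (adjusted p = 0.00878), Pcdh19 at -1.08 ± 0.29 (adjusted p = 0.0204), Pcdh9 at -1.05 ± 0.26 (adjusted p = 0.0107) and Pcdh17 at -0.87 ± 0.24 (adjusted p = 0.0234). Apart from Cdh7, these are delta protocadherins, and all 4 of their calls were lost with an added 0.1 in place of 1 (adjusted p of up to 0.195). Dopamine neuron markers (6 of 6), subthalamic lineage markers (5 of 5, Barhl1 among them) and progenitor markers (4 of 6) were higher in GFP+ pools too. Of the 6 neuron markers, 1 was lower. The part of these cells in the calls was not tested. No beta gene was called between GFP classes at either stage.

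The difference between GFP classes itself changed with stage for 5 members, 3 upwards and 2 downwards, against 3.93% and 1.9% of all genes. Pcdha2 (1.95 ± 0.28, adjusted p = 3.9e-05), Cdh11 (1.72 ± 0.37, adjusted p = 0.00456) and Celsr3 (1.58 ± 0.29, adjusted p = 0.000728) were lower in GFP+ pools at E10.5, with differences at E13.5 of -0.16, 0.31 and -0.01 that were not called. Cdh7 (-2.97 ± 0.60, adjusted p = 0.0024) and Cdh8 (-2.38 ± 0.62, adjusted p = 0.0185) went the other way. Between GFP classes, Cdh8 was called at E10.5 only, as higher in GFP+ pools, and Cdh7 at E13.5 only, as lower. All 6 neuron markers and 5 of 6 mesenchyme markers moved upwards in the same contrast, and their part was not tested. For Cdh8 the call was lost without the 2 marker-rich E10.5 GFP- pools or without the 3 E10.5 GFP+ pools of lowest depth, with an adjusted p of up to 0.0656.

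The molecules that work with cadherins were counted from 4 lists. With stage, 22.1% of all genes rose and 29.6% fell in GFP+ pools, and 19.7% rose and 26.9% fell in GFP- pools. Of 8 catenins tested, 3 rose and 3 fell with stage in GFP+ pools, and 3 rose and 2 fell in GFP- pools. Ctnna2, the neuronal alpha catenin, averaged 143.28 ± 8.39 RPKM in E13.5 GFP+ and 142.02 ± 17.4 in E13.5 GFP- pools, against 12.8 ± 5.08 in E10.5 GFP+ and 35.2 ± 12.8 in E10.5 GFP- pools (SD, n = 6 each). Ctnna1, its counterpart in epithelia, averaged 29.4, 14.3, 91.5 and 61.8 RPKM in the same order of groups and fell by 1.67 in GFP+ pools (adjusted p = 3.44e-09) and by 2.04 in GFP- pools (adjusted p = 1.82e-10). Ctnna2 rose by 3.46 ± 0.22 (adjusted p = 1.15e-12) and by 2.06 ± 0.22 (adjusted p = 2.66e-08) in the same contrasts. Of 10 planar polarity genes, 5 rose and 3 fell in GFP+ pools and 3 rose and 2 fell in GFP- pools; Prickle2 averaged 28.4, 15.5, 1.82 and 5.69 RPKM, and Vangl2, the partner of Celsr proteins at the membrane, 141.11, 80.2, 41.6 and 43.5. Of 5 Fat and Dachsous genes tested, which encode giant cadherins outside the symbol rule, 2 rose and 2 fell in GFP+ pools and 2 rose and 1 fell in GFP- pools. Of 9 regulators of the protocadherin clusters tested, none rose, while 7 fell in GFP+ pools and 5 in GFP- pools. Among them Dnmt3b, a DNA methyltransferase of the clusters' promoters, averaged 0.378, 0.785, 6.59 and 4.21 RPKM, and the cohesin subunit Rad21 29.6, 28.4, 92.8 and 63. These 9 stand beside the 29.6% and 26.9% of all genes that fell.

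Single cells gave the same genes at the scale of 1 cell. A gene was taken as present at 10 RPKM or more, and shares carry exact Clopper-Pearson 95% intervals that cover counting error only; with no animal named, each stage is 1 sample and no test was made. From the earliest stage to the latest, the median number of genes detected per cell was 5747, 3567, 4266 and 4287. Cdh2 was present in 89.1% of cells at E10.5 (82.6 to 93.7), 70% and 69.7% at the next stages and 71.7% at E13.5 (63.7 to 78.9). Pcdh18 was present in 51.8% at E10.5 (43.1 to 60.4), 15.6% and 10.1% at the next stages and 12.4% at E13.5 (7.53 to 18.9). The shares for Cdh6 were 41.6%, 12.2%, 8.99% and 10.3%, and for Celsr1 41.6%, 17.8%, 7.87% and 10.3%, both with an interval of 33.3 to 50.3 at E10.5. For these 3 genes the E10.5 interval lay above those of later stages. Pcdh8 had no such order, with 38%, 17.8%, 21.3% and 33.1%.

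In the other direction, Pcdha2 was present in 2.92% of cells at E10.5 (0.801 to 7.31), 12.2% and 28.1% at the next stages and 38.6% at E13.5 (30.7 to 47.1). Cdh13 had 2.92%, 10%, 20.8% and 27.6%. Celsr3 was in 10.9% of cells at E10.5 (6.26 to 17.4) and in 38.9%, 38.8% and 44.8% (36.6 to 53.3) at the later stages. Pcdhga9 was in 62%, 62.2%, 73.6% and 83.4%. At least 1 beta gene was present in 4.38% of cells at E10.5 (1.62 to 9.29), 18.9% at E11.5 (11.4 to 28.5), 32.6% at E12.5 (25.8 to 40) and 43.4% at E13.5 (35.2 to 51.9). Genes detected per cell were highest at E10.5, where these shares were lowest and those of Cdh2, Pcdh18, Cdh6 and Celsr1 highest. Median rough depth per cell was 1.33 M reads at E10.5, 0.75 M at E11.5, 1.33 M at E12.5 and 1.68 M at E13.5. The part of detection in the shares was not tested.

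**Figure D4:**
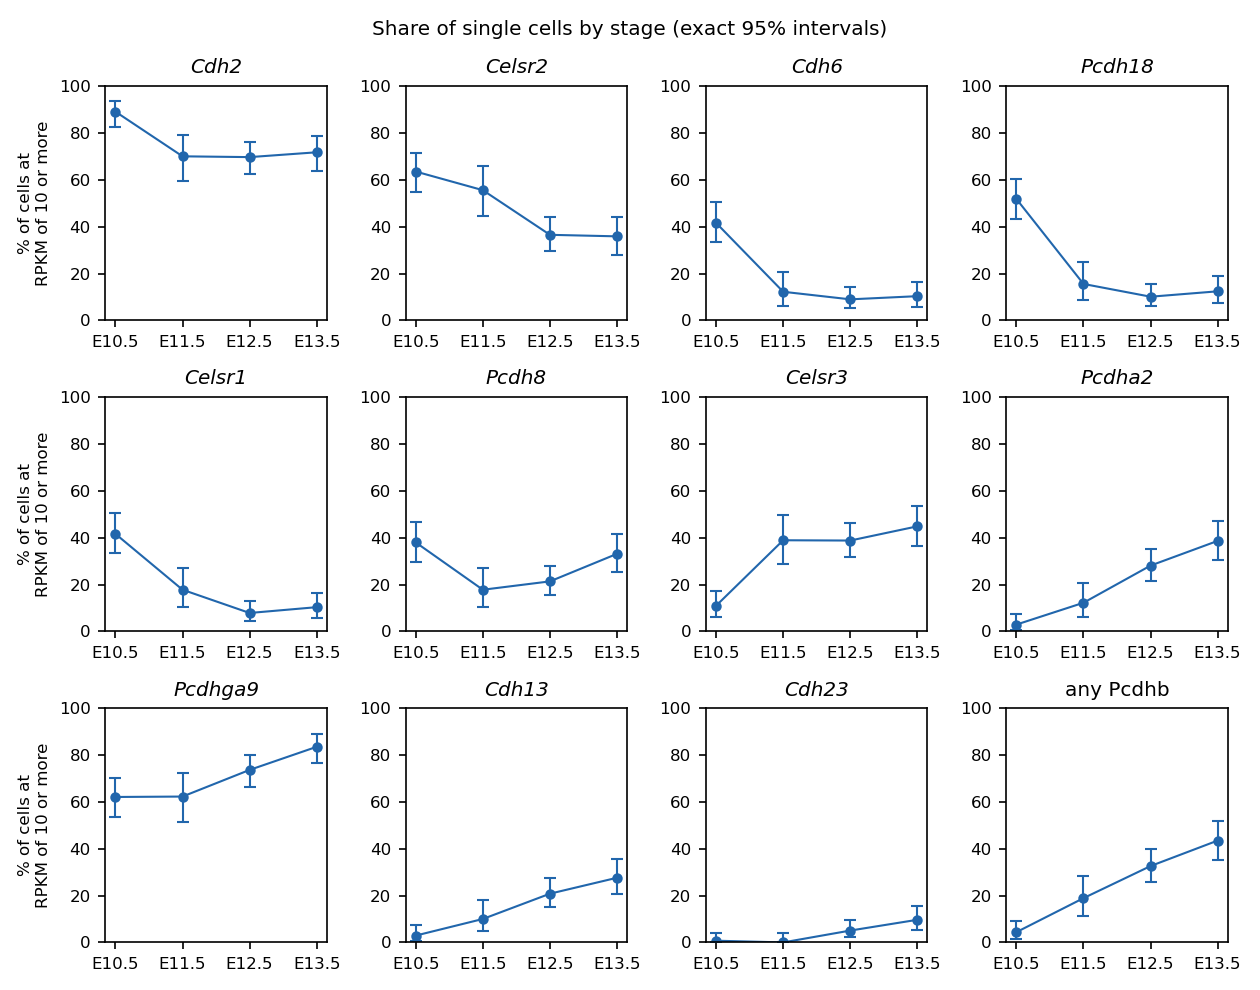
Share of single cells (percent, vertical axis) with 11 members, or with any beta gene, at 10 RPKM or more, by embryonic stage from left to right, with exact 95% intervals. Pcdha2 and any beta gene climb at each stage, while Cdh6, Pcdh18 and Celsr1 are at their highest at E10.5.

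Cells were also split into neurons (Stmn2 at 10 RPKM or more without Sox2) and progenitors (Sox2 without Stmn2). Cells with both genes or with neither were left out of this split, and at E10.5 these were most of the cells. At E10.5, Celsr3 was present in 8 of 8 neurons and 3 of 53 progenitors, and Celsr1 in 0 of 8 neurons and 23 of 53 progenitors (43.4%). Pcdh18 was in 1 of 8 neurons and 36 of 53 progenitors, and Cdh6 in 0 of 8 neurons and 25 of 53 progenitors. At E13.5, Celsr1 was in 1 neuron (0.84% of them) and 5 of 6 progenitors, and Celsr3 in 64 neurons (53.8%) and 0 of 6 progenitors. Celsr1 and Celsr3 rarely met in 1 cell: both were present in 1, 2, 1 and 1 cells from the earliest stage to the latest, while Celsr1 alone was in 56, 14, 13 and 14 cells and Celsr3 alone in 14, 33, 68 and 64. Among all cells with Celsr1, 24, 6, 6 and 5 held Sox2 and 1, 2, 4 and 1 held Stmn2 in the same order of stages. At E10.5 most cells with Celsr1 thus held neither of these markers. Among all cells with Celsr3, 4, 0, 1 and 0 held Sox2 and 9, 31, 66 and 64 held Stmn2. Counts of 8 neurons at E10.5 and 6 progenitors at E13.5 leave wide intervals.

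The beta genes were spread over cells. At E13.5, 63 cells had any beta gene: 42 had 1 gene, 15 had 2 and 6 had 3. They made up 37 different combinations, 20 of the 22 beta rows of the single-cell table were seen, and the most frequent, Pcdhb7, was in 10 cells. In cells where a beta gene was present, at 10 RPKM or more by definition, its median was 79.1 RPKM. Of E13.5 neurons 61 (51.3%, 41.9 to 60.5) held a beta gene, and of progenitors 0 of 6. At E10.5 it was 2 of 8 neurons, the set of greater median depth, and 1 of 53 progenitors. Type II cadherins also came in mixtures: at E13.5, 58 cells had none of the members, 54 had 1, 25 had 2 and 8 had more, in 32 combinations. Missed transcripts in single cells cannot be told apart from silent genes here.

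Last, cells with Th and Nr4a2 but no Barhl1 (dopamine lineage genes) were set beside cells with Barhl1 but not both Th and Nr4a2 (Barhl1 marks the neighbouring subthalamic lineage). There were 20 and 50 such cells at E13.5 and 10 and 50 at E12.5; at E11.5 there were 7 and 24 and at E10.5 2 and 37, too few to describe. As a check, Pitx3 was present in 85% of the Th and Nr4a2 cells at E13.5, against 4% of the Barhl1 cells. Median genes detected were 4791 in the Th and Nr4a2 cells and 4102 in the Barhl1 cells at E13.5, and 4338 and 4105 at E12.5. Neither gate required Stmn2 or excluded Sox2, so that either may mix neurons with less mature cells. The part of maturity in the differences between gates was not tested. At E13.5, 31 members were present in at least 5% of the cells of either gate. By at least 10 percentage points, 8 of them were higher in the Th and Nr4a2 cells and 5 lower. The shares of all genes were 22.5% and 11%. At E12.5 it was 8 higher and 4 lower of 23 members, against 28.2% and 23.3% of all genes. With 10 Th and Nr4a2 cells at that stage, 1 cell could be enough to pass both limits. Pcdh15 and Pcdhb4 counted as higher in this way, at 10% against 0%.

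Cdh23 was present in 0 of 20 Th and Nr4a2 cells (0 to 16.8%) and in 14 of 50 Barhl1 cells (28%, 16.2 to 42.5), so that the intervals just overlapped. All 14 cells with Cdh23 at that stage were in the Barhl1 gate. With presence at 1 RPKM for all genes, which also redraws the gates, it was in 2 of 24 Th and Nr4a2 cells and 15 of 55 Barhl1 cells. Pcdh8 had the widest difference at E13.5, in the other direction, with 55% (31.5 to 76.9) of Th and Nr4a2 cells and 10% (3.33 to 21.8) of Barhl1 cells. Cdh13 was in 60% (36.1 to 80.9) and 24% (13.1 to 38.2), and Pcdha2 in 65% (40.8 to 84.6) and 24% (13.1 to 38.2), of the Th and Nr4a2 cells and the Barhl1 cells. At 1 RPKM, Pcdha2 was in 54.2% and 40% and Cdh13 in 50% and 32.7%, and the intervals overlapped for both genes. Pcdhga9 was in 95% and 76%, Celsr3 in 65% and 48%, and Cdh2 in 60% and 74%.

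At E12.5, Pcdh8 was more frequent in the Th and Nr4a2 cells, at 40% against 8% of Barhl1 cells. So were Celsr3 at 70% against 30% and Pcdh10 at 40% against 8%. The Th and Nr4a2 shares rest on 10 cells, and the intervals of the gates overlapped for each of these genes. At 10 RPKM, Pcdh10 had no such difference at E13.5, with 10% and 12% of the Th and Nr4a2 cells and the Barhl1 cells. Pcdha2 had none at E12.5, with 30% and 28%. At 1 RPKM, Pcdh10 was in 20.8% and 10.9% at E13.5. Pcdha2 was in 58.3% and 31.7% at E12.5, also at 1 RPKM, and the intervals overlapped for both genes. Cdh11 was in 0 of 10 Th and Nr4a2 cells (0 to 30.8%) and in 30% of Barhl1 cells at E12.5. At E13.5 Cdh11 was in 35% and 26%. At 1 RPKM its shares were 25% and 36.5% at E12.5 and 37.5% and 40% at E13.5. The E12.5 cells carry titles of 2 kinds, starting with C (63 cells) or F (all others). Cdh11 was in 5 of 17 Barhl1 cells titled C and in 10 of 33 titled F. Pcdha2 was in 3 of 4 Th and Nr4a2 cells titled C and in 0 of 6 titled F. Cdh13 differed more between titles, with 5.88% of Barhl1 cells titled C and 30.3% of those titled F.

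**Figure D5:**
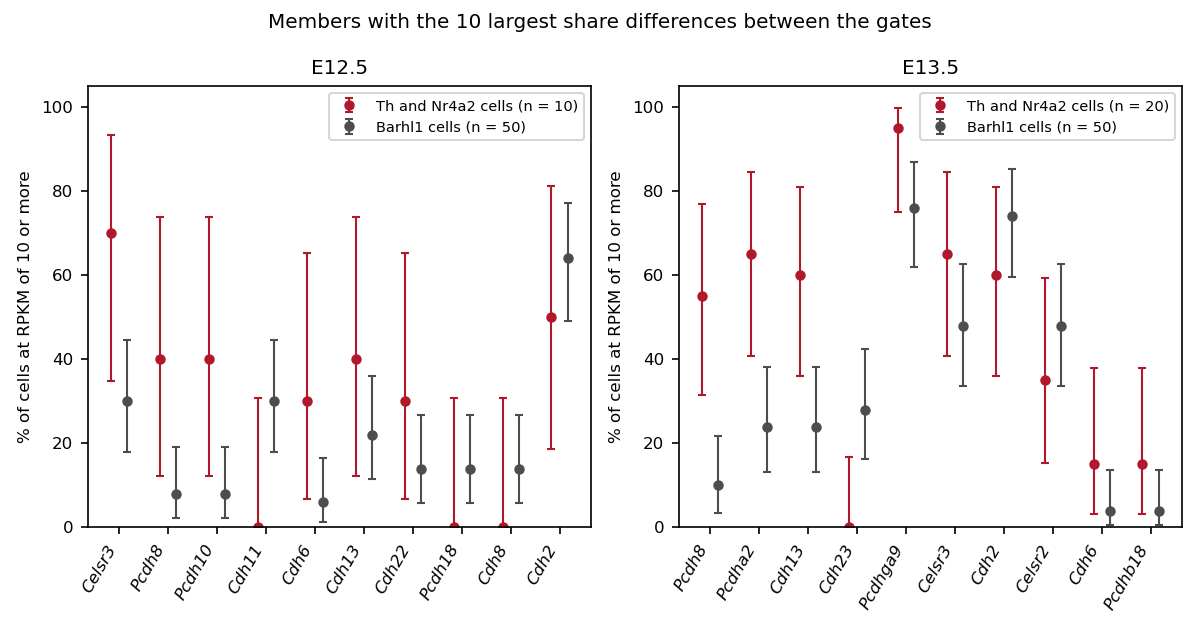
Share of cells (percent, with exact 95% intervals) with the 10 members of largest difference between Th and Nr4a2 cells and Barhl1 cells, for E12.5 (10 and 50 cells) and for E13.5 (20 and 50 cells). At E13.5 the intervals for Cdh23, 0 to 16.8 in the Th and Nr4a2 cells and 16.2 to 42.5 in the Barhl1 cells, just overlap, and those for Pcdh8 do not.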

How the data were processed

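Expression was measured by Smart-seq2 with Nextera XT libraries on an Illumina instrument, per the labels, in 24 pools of 100 cells and 550 single cells. The deposited pool table holds RPKM per gene. The deposited single-cell table holds log2 of RPKM with 0.001 added, which was turned back to RPKM. Reads were aligned with STAR 2.3.0 to mm10, per the submitters' processing notes; the counting tool, strand setting and annotation, not given in the sources used here, are unknown, so overlapping genes (Cdh8, Celsr3, Pcdh8, Pcdh10, Pcdh19 and Pcdhb21 among the members) cannot be separated. RPKM are not counts, and depth was only estimated from the commonest low values.

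Groups came from the labels. Genes at 1 RPKM or more in at least 6 pools (15871) entered a fit by limma (version 3.58.1, under R 4.3.3) on log2(RPKM + 1), with a mean for each of 4 groups, a mean-variance trend and Benjamini-Hochberg adjustment, and called at an adjusted p under 0.05. The fit was tested on simulated data. Intervals used SciPy 1.17.1 in Python 3.11.15. The members and lists were chosen with earlier results of these data known. Members named with values were, in each contrast, the called ones whose higher group averaged 5 RPKM or more (up to 15 a direction; 10 where the GFP difference changed with stage), every one reaching a mean of 20 RPKM in any group, and the 10 with the largest difference between gates; others are named to account for their family. Gates on single cells were set at 10 RPKM, and no caller of doublets was run. Single-cell libraries without molecular identifiers count reads, not molecules. Alternatives were the pseudocount (0.1 and 5), the filter, quantile normalisation, rescaling without globin genes, a fit of the groups compared only, each pool left out in turn, and for cells the level of presence, a minimum of 1000 genes and the kind of title. RefSeq promoter windows and GENCODE vM21 were read on GRCm38.p6.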

Additional observations from a re-analysis of the deposited data

Results flagged for a closer look

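In 8 of 100 groups (25 named members in 4 groups of 6 pools), 1 pool lay far from the other five by Dixon's criterion; chance gives about 1 in 20. For Cdh2, 1 E10.5 GFP+ pool was at 95.5 RPKM and the next at 76.4. For Cdh23, 1 E13.5 GFP- pool was at 14.7 RPKM and the next at 3.98, and 1 E10.5 GFP+ pool was at 0.142 with the others at 0. For Pcdh18, 1 E10.5 GFP- pool was at 68.1 RPKM and the next at 48.1; this pool was also among the 2 richest in endothelial and mesenchymal markers. Lower values set off 1 pool each for Pcdh19 in E10.5 GFP+ pools (0.903 RPKM, next 0.447), Pcdhb16 in E10.5 GFP+ pools (0.451, next 0.0883) and in E10.5 GFP- pools (2.19, next 0.523), and Pcdhb19 in E10.5 GFP- pools (0.375, next 0.136).

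The GFP difference (GFP+ minus GFP-) at E13.5 minus that at E10.5 was past the threshold for 5 members, by limma's test of that difference. On the log2 scale it was 1.95 for Pcdha2 (adjusted p = 3.9e-05), 1.72 for Cdh11 (adjusted p = 0.00456), 1.58 for Celsr3 (adjusted p = 0.000728), -2.38 for Cdh8 (adjusted p = 0.0185) and -2.97 for Cdh7 (adjusted p = 0.0024).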

How the results depend on the processing

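Of 69 calls of named members followed through all settings, 54 were kept in every one, 7 were lost in at least 1 fit without 1 pool, 14 in at least 1 other setting, and 0 reversed. Leaving out each pool in turn gave 4 to 6 members higher and 7 to 7 lower in GFP+ pools at E10.5, 2 to 3 and 3 to 5 at E13.5, 28 to 31 and 4 to 5 for stage in GFP+ pools, 29 to 34 and 5 to 6 in GFP- pools, and 3 to 4 and 2 to 3 for the change of the GFP difference with stage. The lowest count at E13.5, 3 lower, was without E13.5 GFP+ replicate 4. With a filter of 5 RPKM only 21 members could be tested: 13 rose with stage in GFP+ pools (30 in the reported fit) and 15 in GFP- pools (34), 1 was lower in GFP+ pools at E13.5 (5) and 1 was downwards in the difference of differences (2). A pseudocount of 0.1 gave 1 lower at E13.5, and a fit of the E13.5 pools alone 1 higher and 3 lower (3 and 5 reported). Without the 3 E10.5 GFP+ pools of lowest depth, 3 were higher in GFP+ pools at E10.5 (6 reported) and 1 downwards in the difference of differences; this setting, and that without the 2 E10.5 GFP- pools richest in markers, were chosen after seeing the data. The causes were not tested.

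Of single calls, Pcdh18 between GFP classes at E10.5 had an adjusted p of up to 0.103 without 1 pool, and was lost without any one of the 6 GFP+ pools or of GFP- replicates 1 to 5 of that stage. Cdh8 in that contrast was lost without GFP+ replicate 4 or 5 or GFP- replicate 3, 5 or 6 (up to 0.0797). At E13.5, Pcdh8 was lost without GFP+ replicate 4 or 5 or GFP- replicate 1, 4 or 5 (up to 0.0594), Pcdh17 without GFP+ replicate 4 or 6 or GFP- replicate 2 or 6 (up to 0.0624) and Pcdh19 without GFP+ replicate 4 or GFP- replicate 1 (up to 0.0604). With stage in GFP- pools, Cdh2 was lost without E10.5 replicate 2 or 5 (up to 0.0708) and Cdh11 without replicate 3 or 6 (up to 0.057). In cells, presence at 1 RPKM moved 22 of 200 shares out of their interval, cells titled C moved 21 of 75 E12.5 shares and cells titled F 6 of 75, and a minimum of 1000 genes removed 0 cells. No paired analysis was possible because the labels give pools no replicate number that could pair them. Depth limits the beta genes at E10.5 and all shares from few cells.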
